A study of Mus musculus with 9 samples.

Results

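The Notch genes described here were the 4 receptors Notch1, Notch2, Notch3 and Notch4, the 5 ligands Dll1, Dll3, Dll4, Jag1 and Jag2, and Rbpj, the DNA-binding factor of the pathway. They were taken by gene symbol and made up 10 of the 55536 genes in the deposited tables. Their RNA was measured by RNA-seq in 9 libraries of mouse pancreatic islet cells, which had been separated by fluorescence-activated sorting on CD24, a surface glycoprotein, and CD71, the transferrin receptor. The delta-enriched subset was CD24high, the beta-enriched subset was CD24low CD71+ and the alpha-enriched subset was CD24low CD71-, with 3 libraries per subset, called delta, beta and alpha below. All mice were C57B/L6 at 12 weeks of age with no genetic change or treatment given in the labels, and all islets had been hand-picked, kept in culture overnight and dispersed. A gate on surface markers enriches a cell type without purifying it. The labels do not say whether libraries came from separate or pooled animals, so p-values measure only the spread between these libraries, which may be technical.

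Notch receptors sit in the cell membrane and are cut after they bind a Delta-like or Jagged ligand on a neighbouring cell. The freed intracellular domain enters the nucleus, where Rbpj and a Mastermind-like protein join it to switch on Hes and Hey repressor genes. In the developing pancreas, Notch signalling holds progenitors back from the endocrine fate, and its target Hes1 represses Neurog3, the gene that starts endocrine differentiation.

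Library totals ran from 5663141 to 9529920 expected counts, and beta library 2 gave 34.4% of its counts to the ribosomal RNA locus, against 3.15% to 5.37% in the other libraries. Each subset had the highest level of its own markers. Delta markers summed to between 15390 and 21750 CPM (counts scaled by library total and TMM factor) in delta, between 3.26 and 4.62 in beta and between 116 and 159 in alpha. Beta markers summed to between 5860 and 7114 CPM in delta, between 49380 and 60380 in beta and between 4254 and 6193 in alpha. In delta most of this sum was Iapp, which averaged 6202 CPM there and 1736 in alpha. The other beta markers each averaged lower in delta than in alpha, with Ins2 at 191 and 2325 CPM. Alpha markers summed to between 2031 and 6240 CPM in delta, between 415 and 635 in beta and between 81070 and 100600 in alpha. In sorted bulk samples, fewer cells that carry a transcript and less of it per cell cannot be told apart.

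The 3 subsets differed in Notch2, Dll4, Jag1 and Jag2, while no difference was called in Notch1 or Rbpj. Beta libraries had the most Jag2 and the least Notch2 and Jag1, alpha libraries had the least Dll4, and delta libraries were close to alpha in Notch2 and to beta in Dll4. Of the 10 genes, 8 passed the filter on low counts, and Notch4 and Dll3 did not. In delta against beta, 3 of the 8 passed edgeR's quasi-likelihood test at an adjusted p of 0.05, Notch2 and Jag1 higher and Jag2 lower, where 30.6% of all 15896 tested genes did (15.3% higher, 15.4% lower). In delta against alpha, Dll4 alone passed and was higher, against 24.3% of all tested genes (13.3% higher, 11% lower). In beta against alpha, 4 passed, Jag2 and Dll4 higher and Notch2 and Jag1 lower, against 26.6% of all tested genes (14.8% higher, 11.9% lower). The median log2 fold change of the 8 genes was 0.12, 0.09 and 0.23 in these 3 comparisons, beside 0.02, 0.01 and -0.02 over all tested genes. The libraries of the subsets compared did not overlap for 4 of the 8 genes in delta against beta (42.6% of all tested genes), 3 in delta against alpha (36.1%) and 5 in beta against alpha (45.5%).

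**Figure D1:**
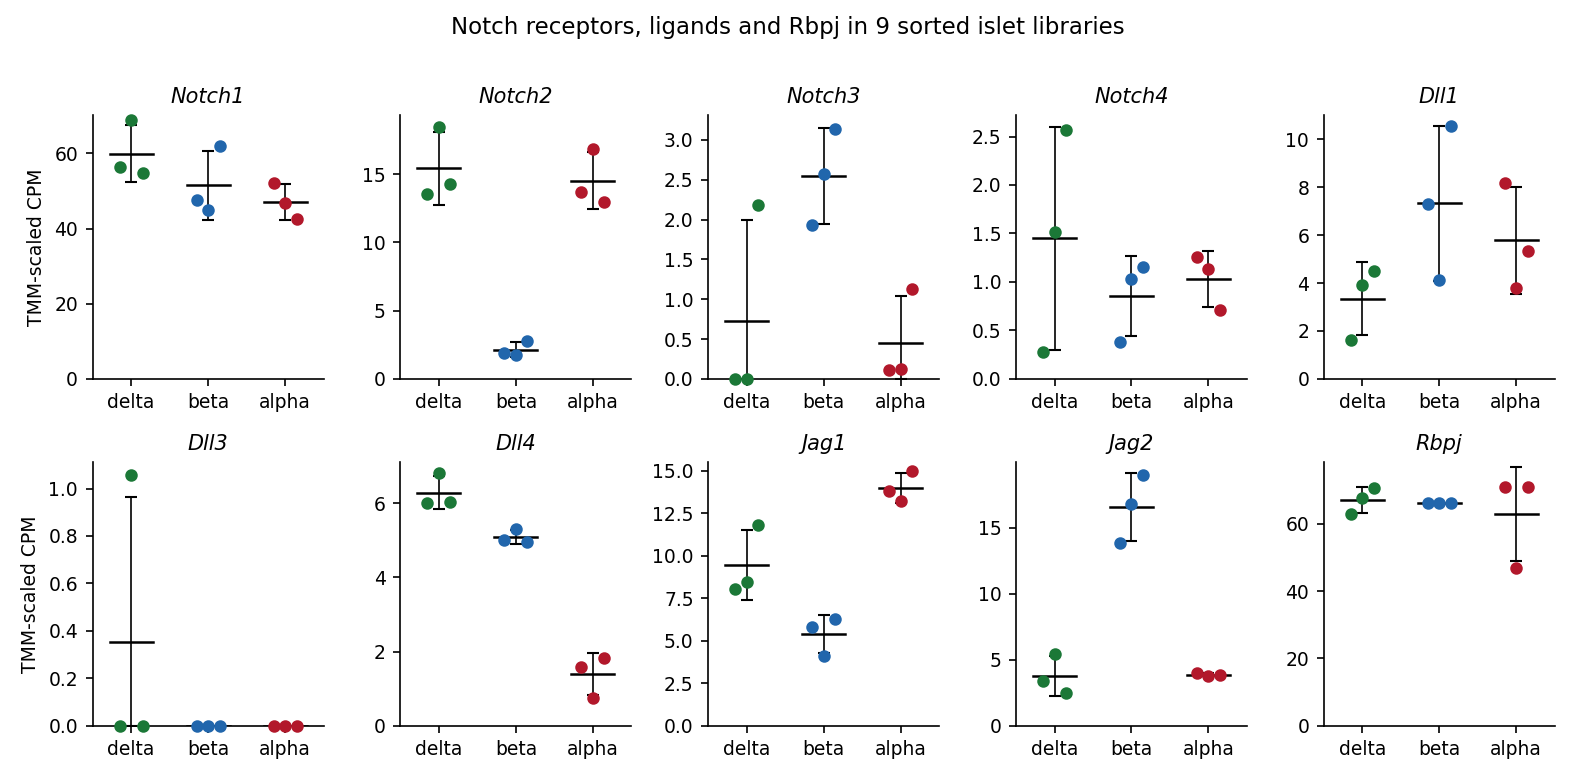
Level of each Notch gene in TMM-scaled CPM (vertical axes start at 0 and differ between panels) in the delta, beta and alpha libraries. Points are libraries, horizontal lines are means and bars are SD over 3 libraries, not drawn below 0. Notch2 averaged 15.4 CPM in delta, 2.15 in beta and 14.5 in alpha, while Rbpj averaged 67.2, 66.3 and 62.9.

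In both comparisons with another subset, Jag2 was called higher in beta, a pattern found in 8.48% of tested genes. Notch2 and Jag1 were called lower in beta than in both other subsets, as were 7.02% of tested genes. Dll4 was called lower in alpha than in both other subsets, as were 5.42% of tested genes, and no Notch gene was called higher there, as 4.04% of tested genes were. None of the 8 genes was called higher or lower in delta than in both other subsets, where 7.03% of tested genes were called higher and 5.61% lower.

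**Figure D2:**
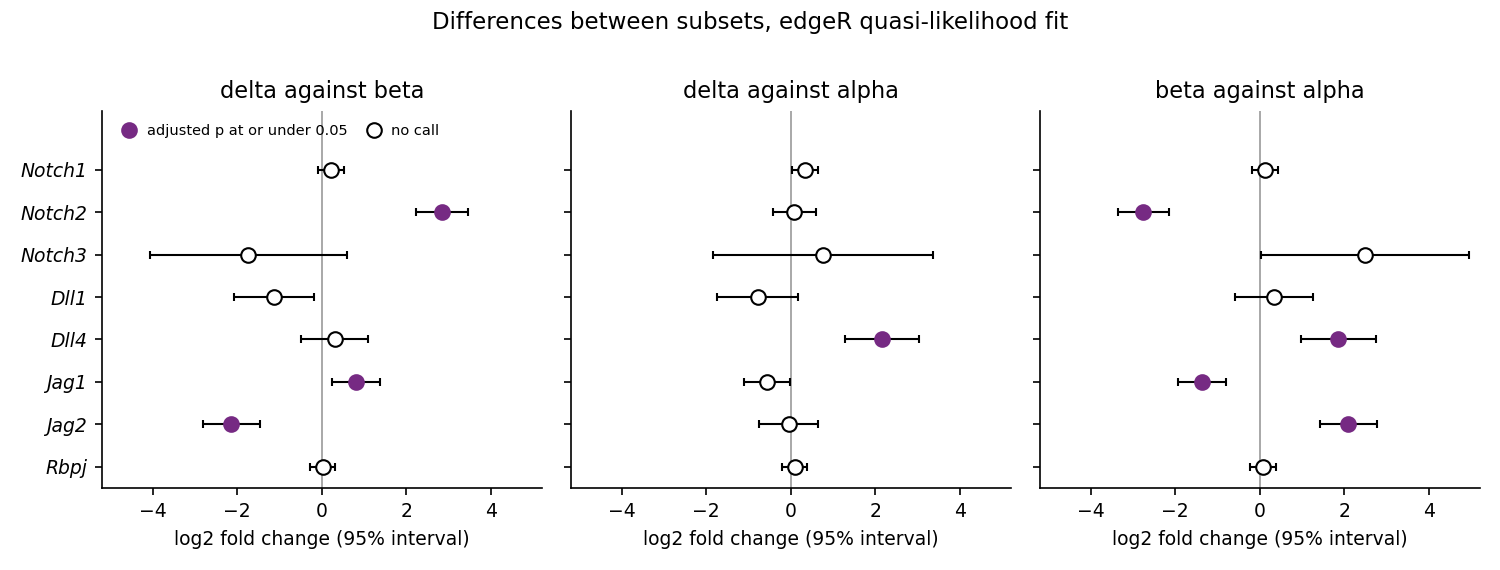
Log2 fold change (horizontal axis) of the 8 tested Notch genes in delta against beta, delta against alpha and beta against alpha, with 95% intervals from the edgeR fit. Filled points have an adjusted p at or under 0.05. Notch2 lay at 2.84, 0.08 and -2.75 and Jag2 at -2.14, -0.05 and 2.09.

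The windows from 250 bases before to 50 after the transcript start of Notch2, Jag1 and Jag2 are shown because these genes separated beta from both other subsets. Those of Rbpj and of Hes5, a classical Notch target, are shown because they hold the core letters that Rbpj is known to bind. All are RefSeq sequences of build GRCm38.p6 in the direction of transcription, 5′ to 3′. Capitals mark TGGGAA or, for a match on the other strand, TTCCCA. The windows lie at chr3:98013288-98013587 on the plus strand for Notch2, chr2:137116471-137116770 on the minus strand for Jag1, chr12:112929446-112929745 on the minus strand for Jag2, chr5:53590096-53590395 on the plus strand for Rbpj and chr4:154960673-154960972 on the plus strand for Hes5.
Notch2: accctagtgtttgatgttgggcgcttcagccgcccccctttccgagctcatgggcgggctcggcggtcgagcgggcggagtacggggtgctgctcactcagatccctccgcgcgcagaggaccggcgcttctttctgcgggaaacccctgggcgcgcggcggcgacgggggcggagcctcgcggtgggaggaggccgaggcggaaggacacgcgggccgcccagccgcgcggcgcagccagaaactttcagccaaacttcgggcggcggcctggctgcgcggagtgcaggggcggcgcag
Jag1: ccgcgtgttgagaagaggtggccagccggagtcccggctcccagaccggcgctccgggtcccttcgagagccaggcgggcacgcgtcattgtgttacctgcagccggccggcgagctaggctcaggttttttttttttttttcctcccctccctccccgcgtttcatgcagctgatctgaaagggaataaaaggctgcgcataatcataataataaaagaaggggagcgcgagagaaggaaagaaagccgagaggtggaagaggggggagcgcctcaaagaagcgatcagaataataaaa
Jag2: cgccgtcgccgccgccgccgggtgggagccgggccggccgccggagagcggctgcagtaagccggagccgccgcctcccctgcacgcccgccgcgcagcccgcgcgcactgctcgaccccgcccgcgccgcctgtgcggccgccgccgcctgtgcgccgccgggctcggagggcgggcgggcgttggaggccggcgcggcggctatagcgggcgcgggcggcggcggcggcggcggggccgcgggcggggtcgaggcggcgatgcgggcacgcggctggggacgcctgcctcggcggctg
Rbpj: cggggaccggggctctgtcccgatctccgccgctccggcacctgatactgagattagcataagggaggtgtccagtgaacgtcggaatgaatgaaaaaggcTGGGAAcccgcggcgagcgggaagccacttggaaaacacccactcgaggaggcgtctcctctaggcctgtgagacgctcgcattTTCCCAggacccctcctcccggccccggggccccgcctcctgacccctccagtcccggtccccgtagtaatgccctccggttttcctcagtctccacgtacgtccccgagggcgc
Hes5: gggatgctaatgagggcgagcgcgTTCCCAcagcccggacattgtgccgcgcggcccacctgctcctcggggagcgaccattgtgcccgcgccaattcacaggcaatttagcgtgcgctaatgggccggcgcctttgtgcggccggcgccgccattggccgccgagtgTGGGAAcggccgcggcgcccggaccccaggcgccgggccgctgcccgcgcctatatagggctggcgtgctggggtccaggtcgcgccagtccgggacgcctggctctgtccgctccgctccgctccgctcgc

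The windows of all 10 genes were matched in the RefSeq table, and only those of Rbpj held TGGGAA on either strand. Over all 32851 windows of the table, 25.6% held these letters. The Rbpj and Hes5 windows shown each held 2 matches. Of 7 canonical target genes looked up, 4 had a window, and besides Hes5 that of Hey2 held 2 matches, Hes7 1 and Nrarp 0. Matches are letters and not measured binding. The Jag2 window was 86.0% G or C with 63 CpG dinucleotides, the Notch2 window 73.0% with 41 and the Jag1 window 55.7% with 22, where the medians over all windows were 52.7% and 7. The Hes N-box letters CACNAG were found in 42.5% of all windows and, among the 5 shown, in that of Notch2. Among the others of the 10 genes, the windows of Notch1, Notch3 and Dll4 and a Dll1 window held them.

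Notch1 (ENSMUSG00000026923, chr2:26457903-26516663, minus strand), the receptor most studied in development, had the highest level per length of the 4 receptors in every library. It stood at 56.3, 68.8 and 54.9 CPM in delta, 47.5, 44.9 and 62.05 in beta and 52.2, 46.7 and 42.6 in alpha. Delta and beta libraries overlapped, beta and alpha libraries overlapped, and the 3 delta libraries lay above the 3 alpha libraries. No difference passed the edgeR test. The log2 fold change was 0.22 (95% interval -0.09 to 0.53, adjusted p = 0.290) in delta against beta, 0.34 (0.03 to 0.65, adjusted p = 0.101) in delta against alpha and 0.12 (-0.19 to 0.44, adjusted p = 0.614) in beta against alpha.

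Notch2 (ENSMUSG00000027878, chr3:98013527-98150361, plus strand), a receptor with a domain structure like that of Notch1, was low in beta and nearly equal in delta and alpha. It stood at 13.5, 18.45 and 14.3 CPM in delta, 1.93, 1.71 and 2.81 in beta and 13.7, 16.9 and 13.0 in alpha. The 3 beta libraries lay far below the other 6, and delta and alpha libraries overlapped. Notch2 was 7.14-fold higher in delta than in beta (log2 2.84, SE 0.289, adjusted p = 6.61e-07) and 6.73-fold lower in beta than in alpha (log2 -2.75, SE 0.289, adjusted p = 1.10e-06). Between delta and alpha the log2 fold change was 0.08, with a 95% interval from -0.42 to 0.59 (adjusted p = 0.844). Markers of PP cells, the islet cells that make pancreatic polypeptide, were in sum also lowest in beta. All 4 of 4 had counts, and they summed to between 4719 and 6632 CPM in delta, between 211 and 241 in beta and between 2961 and 4013 in alpha. Ppy itself averaged 1709 CPM in delta, 41.5 in beta and 2014 in alpha, and Pyy 3395, 30.85 and 1245. Sertm1 was low in delta too, at 0.678, 0 and 14.0 CPM in delta, beta and alpha. Meis2 was nearly as low in alpha as in beta, at 374, 153 and 189 CPM in the same order. The part of these markers in the result was not tested.

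Within a library, the share of Notch2 in the summed counts of Notch2 and Notch1 does not depend on library scaling. It was 19.4% (exact 95% interval 16.0% to 23.1%), 21.1% and 20.6% in delta, 3.90% (2.20% to 6.35%), 3.68% and 4.33% in beta and 20.8% (17.5% to 24.3%), 26.5% and 23.4% in alpha. No interval of a beta library reached that of a delta or alpha library. The share was chosen after the levels had been seen and was not tested, and its intervals cover counting error only.

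Notch3 (ENSMUSG00000038146, chr17:32120820-32166852, minus strand), a receptor known from pericytes and vascular smooth muscle, was present at few counts. It had 0, 0 and 17 expected counts in delta, 15, 15 and 19 in beta and 1, 1 and 8 in alpha. These were 0, 0 and 2.18 CPM in delta, 1.93, 2.57 and 3.14 in beta and 0.114, 0.126 and 1.13 in alpha. All beta libraries lay above all alpha libraries, and delta library 3 lay among the beta libraries. In delta libraries 1 and 2, a count of 0 allows up to 3 counts, or 0.410 and 0.454 CPM.

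No Notch3 difference passed the edgeR test in the fit of all libraries with subset as the only term, with an adjusted p of 0.263 in delta against beta, 0.715 in delta against alpha and 0.137 in beta against alpha. Without delta library 3, delta against beta passed (adjusted p = 0.00650), with both remaining delta libraries at 0, and the fitted difference in delta against alpha changed sign without passing (adjusted p = 0.112). Beta against alpha passed when only these 2 subsets entered the fit (log2 2.49, adjusted p = 0.00720). With a term for replicate number in the edgeR fit, delta against beta (log2 -2.87, adjusted p = 0.0474) and beta against alpha (log2 3.23, adjusted p = 0.0303) passed. Delta library 3 also had the most acinar marker RNA, at 3033 CPM summed over 12 genes, against 235 and 115 in the other delta libraries. Pericyte and mesenchymal markers, of which 9 of 9 had counts somewhere, summed to between 3.41 and 9.12 CPM in delta, between 1.28 and 1.54 in beta and between 13.4 and 52.0 in alpha. Col1a1, Col3a1, Dcn and Cspg4 were at 0 in every delta and beta library. Rgs5, a pericyte marker, had 11, 19 and 51 counts in delta, 9, 4 and 4 in beta and 23, 37 and 6 in alpha, and Pdgfrb had 0 in every delta library, 0, 2 and 3 in beta and 0, 16 and 3 in alpha. Delta library 3, the only delta library with Notch3 counts, had the most Rgs5, and the part of these markers in the result was not tested.

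Notch4 (ENSMUSG00000015468, chr17:34564268-34588503, plus strand), a receptor known from endothelium, failed the filter on low counts. It had 2, 10 and 20 counts in delta, 3, 6 and 7 in beta and 11, 9 and 5 in alpha, and the 3 subsets overlapped. Endothelial markers, of which 7 of 8 had counts, summed to between 3.69 and 10.4 CPM in delta, between 2.57 and 4.97 in beta and between 2.40 and 4.91 in alpha. Plvap was at 0 everywhere and Cdh5 had 1 count in all. Pecam1 had 18, 4 and 17 counts in delta, 0, 2 and 0 in beta and 1, 4 and 5 in alpha, and Esam had 7, 43 and 46 in delta, 11, 15 and 12 in beta and 28, 28 and 9 in alpha. The part of these markers was not tested.

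Among the ligands, Dll1 (ENSMUSG00000014773, chr17:15367354-15376872, minus strand), the Delta-like ligand known to act in pancreatic progenitors, varied widely within subsets. It stood at 1.64, 3.93 and 4.50 CPM in delta, 7.32, 4.11 and 10.6 in beta and 8.20, 3.78 and 5.36 in alpha. The subsets overlapped, with the lowest library in delta and the highest in beta. Delta against beta gave a log2 fold change of -1.12 (95% interval -2.08 to -0.17) that missed the threshold in edgeR (adjusted p = 0.0703), and it passed without beta library 2 (log2 -1.40, adjusted p = 0.0429) or with no filter on low counts (adjusted p = 0.0350). The log2 fold change was -0.79 (adjusted p = 0.236) in delta against alpha and 0.34 (adjusted p = 0.644) in beta against alpha. The long noncoding gene A930024N18Rik overlaps Dll1 by 1873 bases on the other strand and had 194 counts in all libraries, against 357 for Dll1. The sources used here do not say whether counting used the strand, so reads of the 2 genes may not be fully separated.

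Dll3 (ENSMUSG00000003436, chr7:28293553-28302238, minus strand), a divergent ligand that is known not to activate receptors on neighbouring cells, had 7 counts in delta library 2 and 0 in the other 8 libraries. In those 8, a count of 0 allows up to 3 counts, which is between 0.342 and 0.514 CPM. No test was made.

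Dll4 (ENSMUSG00000027314, chr2:119325784-119335962, plus strand), best known as the Delta-like ligand of sprouting blood vessels, was low in alpha. It stood at 6.01, 6.80 and 6.04 CPM in delta, 5.01, 5.31 and 4.95 in beta and 1.60, 0.756 and 1.83 in alpha. The 3 alpha libraries lay below the other 6, and the delta libraries lay just above the beta libraries. Dll4 was 4.47-fold higher in delta than in alpha (log2 2.16, SE 0.413, adjusted p = 0.000809) and 3.63-fold higher in beta than in alpha (log2 1.86, SE 0.416, adjusted p = 0.00259). Delta against beta gave a log2 fold change of 0.30 with a 95% interval from -0.50 to 1.10 (adjusted p = 0.5998). The alpha level rested on 33 counts over 3 libraries. The summed endothelial markers stood at 3.69, 10.1 and 10.4 CPM in delta, 2.57, 4.97 and 3.796 in beta and 4.33, 4.91 and 2.40 in alpha. Of these markers, Cdh5, Kdr, Emcn and Plvap were at 0 in every delta library. Esam averaged 4.46 CPM in delta, 1.99 in beta and 2.66 in alpha. In the same order Pecam1 averaged 1.75, 0.114 and 0.441, Tek 1.53, 1.26 and 0.528 and Flt1 0.343, 0.208 and 0.0420. The part of these markers in the result was not tested.

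Jag1 (ENSMUSG00000027276, chr2:137081456-137116644, minus strand), the Jagged ligand whose human gene is mutated in Alagille syndrome, was highest in alpha and lowest in beta. It stood at 8.06, 8.47 and 11.8 CPM in delta, 5.78, 4.11 and 6.27 in beta and 13.8, 13.2 and 15.0 in alpha. The 3 subsets did not overlap, with delta between the others. Jag1 was 2.58-fold lower in beta than in alpha (log2 -1.37, SE 0.268, adjusted p = 0.000824) and 1.75-fold higher in delta than in beta (log2 0.81, SE 0.271, adjusted p = 0.0316). The call in delta against beta was lost without delta library 3 (log2 0.61, adjusted p = 0.134), without beta library 1 (0.86, adjusted p = 0.0743), without beta library 2 (0.66, adjusted p = 0.137) with no filter on low counts (0.80, adjusted p = 0.0556) and with alpha left out of the fit (0.82, adjusted p = 0.0738). Delta against alpha gave -0.56 (95% interval -1.10 to -0.02, adjusted p = 0.127). The pericyte and mesenchymal marker sums followed the same order of subsets as Jag1, but varied within alpha (13.4, 52.0 and 16.9 CPM). Not every marker kept this order. Rgs5 averaged 3.64 CPM in delta, 0.834 in beta and 2.71 in alpha, and Acta2 0.552, 0.224 and 0.301. Pdgfrb averaged 0 CPM in delta, 0.279 in beta and 0.813 in alpha. The part of these markers in the result was not tested.

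Jag2 (ENSMUSG00000002799, chr12:112907819-112929776, minus strand), the other Jagged ligand, ran the opposite way to Jag1 and Notch2. It stood at 3.41, 5.44 and 2.44 CPM in delta, 13.9, 16.8 and 19.0 in beta and 3.99, 3.78 and 3.81 in alpha. All beta libraries lay above the other 6, which overlapped. Jag2 was 4.40-fold lower in delta than in beta (log2 -2.14, SE 0.319, adjusted p = 5.12e-05) and 4.27-fold higher in beta than in alpha (log2 2.09, SE 0.316, adjusted p = 6.71e-05). Delta against alpha gave -0.05 with a 95% interval from -0.75 to 0.66 (adjusted p = 0.941).

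Jag2 made up 29.8% (exact 95% interval 20.3% to 40.7%), 39.1% and 17.1% of the summed Jag2 and Jag1 counts in delta, 70.6% (62.7% to 77.7%), 80.3% and 75.2% in beta and 22.4% (16.2% to 29.8%), 22.2% and 20.3% in alpha. Jag2 thus held most of the Jagged counts, which also depend on transcript length, in all beta libraries and the smaller part in all others. Like the receptor share, it was chosen after the levels had been seen and was not tested.

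**Figure D3:**
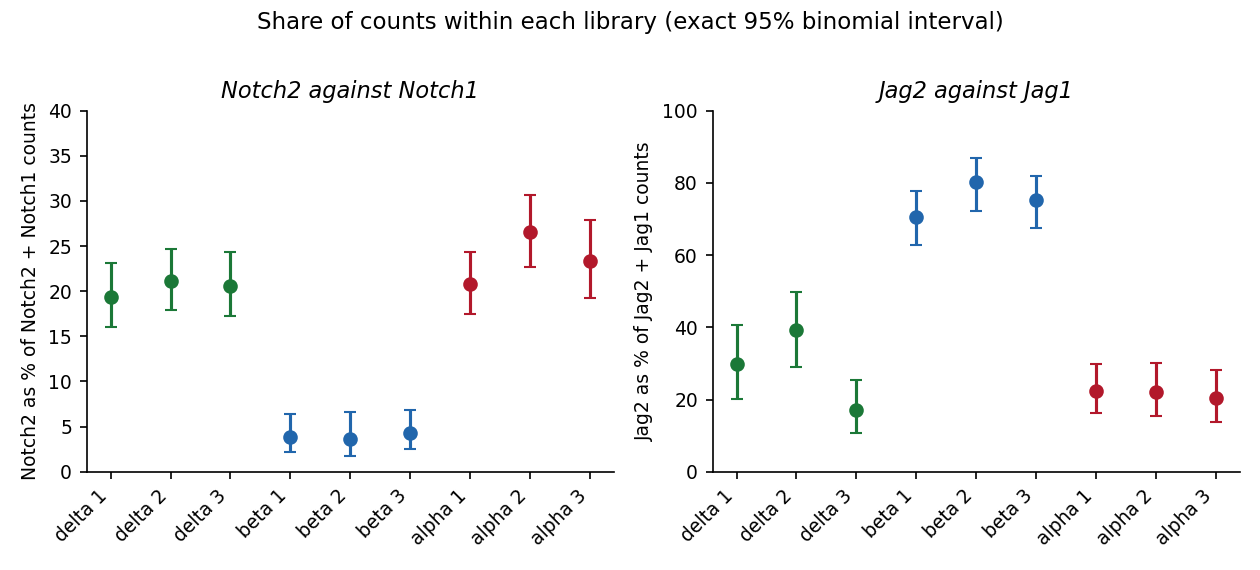
Notch2 as a percentage of Notch2 and Notch1 counts (left) and Jag2 as a percentage of Jag2 and Jag1 counts (right) in each delta, beta and alpha library, with exact 95% binomial intervals for counting error. Beta libraries lie between 3.68% and 4.33% on the left and between 70.6% and 80.3% on the right, clear of the other libraries.

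Rbpj (ENSMUSG00000039191, chr5:53466152-53657362, plus strand), through which all 4 receptors act in the canonical pathway, was nearly level. It stood at 63.1, 67.7 and 70.8 CPM in delta, 66.3, 66.15 and 66.35 in beta and 71.0, 46.8 and 71.0 in alpha. The subsets overlapped, and alpha library 2 was the lowest of all. The log2 fold change was 0.02 (95% interval -0.28 to 0.32, adjusted p = 0.934) in delta against beta, 0.10 (-0.20 to 0.39, adjusted p = 0.684) in delta against alpha and 0.07 (-0.23 to 0.37, adjusted p = 0.770) in beta against alpha.

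Compared per length, as TPM (counts divided by effective length and scaled to a common total), Rbpj had the highest mean of the 10 genes in every subset, and Notch1 followed. Rbpj averaged 7.83 ± 0.570 TPM in delta, 7.98 ± 2.42 in beta and 7.71 ± 2.91 in alpha, and Notch1 averaged 4.94 ± 2.93, 4.40 ± 3.10 and 3.30 ± 0.420 in the same subsets (SD, n = 3). The libraries of these 2 genes overlapped in delta and beta but not in alpha. In beta, Jag2 came next at 3.46 ± 1.47 TPM, within the spread of Notch1, then Dll1 at 1.89 ± 1.42, Dll4 at 0.893 ± 0.278 and Jag1 at 0.607 ± 0.286, each overlapping its neighbour.

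In delta, Jag2 at 1.09 ± 0.286, Dll1 at 1.01 ± 0.651, Jag1 at 0.960 ± 0.372, Dll4 at 0.807 ± 0.164 and Notch2 at 0.680 ± 0.191 TPM did not differ beyond their spread. In alpha, Dll1 at 2.42 ± 1.32, Jag2 at 1.78 ± 1.30 and Jag1 at 1.58 ± 0.349 TPM overlapped, followed by Notch2 at 0.757 ± 0.119 and Dll4 at 0.307 ± 0.0850, which did not overlap. Notch2 averaged 0.220 ± 0.123 TPM in beta. Notch4 averaged 0.377, 0.297 and 0.143 TPM in delta, beta and alpha, and Notch3 0.0467, 0.167 and 0.0367. Dll3 averaged 0.0700 TPM in delta and was listed at 0 in beta and alpha.

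The TPM order carries the length RSEM assigned to each gene in each library, and this length varied. The highest effective length of a gene was 5.54 times its lowest for Jag2, 3.66 times for Dll4, 2.96 times for Notch2 and 1.45 times for Jag1, where the median over tested genes was 1.30. For Jag2, 35 counts in alpha library 1 became 0.420 TPM and 27 counts in alpha library 3 became 3.02 TPM. In limma on log2(TPM + 0.1), none of the 8 edgeR calls passed, with 2, 1 and 4 of the 8 genes at an unadjusted p under 0.05 in delta against beta, delta against alpha and beta against alpha. In limma on log2 CPM, with no length in the value and chosen after the data had been seen, every edgeR call passed, with 4, 1 and 4 genes called in the same comparisons. CPM and TPM also differ here in scaling and pseudocount, and the cause of the lost calls was not tested.

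Genes with the most similar pattern over the 9 libraries were listed by Pearson's r of log2 CPM among 8687 protein-coding genes with a mean of at least 10 CPM. The points share libraries and scaling, and r is given as a description. For Notch2 they included Plin3 (r = 0.994) and Peg10 (0.990), with Plin3 at 16.4 CPM in delta, 1.39 in beta and 14.8 in alpha. For Jag2 they were Ube2q1 (0.990), Hars (0.978) and Gpr45 (0.977), with Gpr45 at 6.75 CPM in delta, 42.1 in beta and 6.11 in alpha.

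For Dll4 the most similar genes were Trpm3 (0.989), Itgb8 (0.988) and Lrp5 (0.985), with Lrp5 at 30.5 CPM in delta, 22.7 in beta and 1.47 in alpha. For Jag1 they were Rtel1 (0.976), Gpld1 (0.9754) and Cystm1 (0.969), with Gpld1 at 19.4 CPM in delta, 10.3 in beta and 30.5 in alpha. Rbpj and Notch1, the most level of the 8, had the lowest top values, 0.874 with Far2 and 0.918 with Zkscan17. Dll1 was most like Imp4 (0.926) and Notch3 most like Alg9 (0.970).

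The wider pathway was followed with 52 genes in 6 lists, of which 41 passed the filter on low counts. The test was passed by 11 in delta against beta (6 higher, 5 lower), 8 in delta against alpha (5 higher, 3 lower) and 10 in beta against alpha (6 higher, 4 lower). These are 26.8%, 19.5% and 24.4% of those tested, near the shares of all genes given above, so the lists did not stand out by count. Comparisons between subsets share libraries and are not independent of each other.

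Genes that process ligands and receptors numbered 21, all tested, of which 2 were higher and 2 lower in delta than in beta. Neurl1a, which encodes a ubiquitin ligase that acts on Notch ligands, had 39.3, 66.5 and 47.0 CPM in delta, 13.5, 14.05 and 11.9 in beta and 23.35, 25.2 and 27.4 in alpha. Its 3 subsets did not overlap, and its log2 fold change was 1.95 (SE 0.195, adjusted p = 5.13e-07) in delta against beta, 1.01 (SE 0.184, adjusted p = 0.000525) in delta against alpha and -0.94 (SE 0.196, adjusted p = 0.00138) in beta against alpha. The other calls in delta against beta were Dtx3 higher (0.63, adjusted p = 0.0140) and Dtx2 and Adam10 lower (-1.01, adjusted p = 0.0368, and -0.35, adjusted p = 0.0394). Dtx genes encode Deltex regulators, and Adam10 encodes a protease that cuts bound receptors.

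In delta against alpha, Neurl1a and Dtx1 (log2 1.41, adjusted p = 0.00811) were higher and no gene of this list was lower. In beta against alpha, the ligand-ubiquitinating genes Mib1 (0.37, adjusted p = 0.00808) and Mib2 (0.63, adjusted p = 0.0171) and the protease gene Adam10 (0.43, adjusted p = 0.0133) were higher and Neurl1a was lower. Neurl1a and Dtx1 kept their calls when any library was left out. Each of the others lost its call without at least 1 library. Those losses were Dtx3 without beta 1 (adjusted p = 0.0976), Dtx2 without delta 1 (0.0932), delta 3 (0.0829), beta 2 (0.193) or beta 3 (0.0744), and Mib1 without beta 1 (0.0593) or alpha 2 (0.0676). Mib2 lost it without beta 2 (0.0662), beta 3 (0.0889), alpha 1 (0.0580) or alpha 2 (0.0851), and Adam10 in beta against alpha without alpha 2 (0.0738). Adam10 in delta against beta lost it without delta 2 (0.145), delta 3 (0.0888), any beta library (0.0835 to 0.106), alpha 1 (0.0509) or alpha 2 (0.0504).

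Of the 5 glycosyltransferase genes, whose products add sugars to receptors, 3 were tested. None was called in any comparison by edgeR, DESeq2 or limma on log2 CPM, with 0 at an unadjusted p under 0.05. Lfng had 2 counts, both in alpha library 2. Mfng had 12, 3 and 8 counts in delta, 3, 1 and 7 in beta and 0 in every alpha library.

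Among 12 genes of Rbpj cofactors, 11 were tested, and the largest difference was in Maml2, a Mastermind-like coactivator. Maml2 stood at 26.9, 27.5 and 28.3 CPM in delta, 3.60, 4.46 and 5.78 in beta and 31.6, 37.4 and 32.45 in alpha. Like Notch2, Maml2 was far lower in all beta libraries than in the other 6. The PP markers Ppy and Pyy were also lowest there. Sertm1 was low in delta too (0.678, 0 and 14.0 CPM in delta, beta and alpha). Meis2 was nearly as low in alpha as in beta (374, 153 and 189 CPM). The part of these markers in the result was not tested. Maml2 was 6.02-fold higher in delta than in beta (log2 2.59, SE 0.204, adjusted p = 2.95e-08) and 7.38-fold lower in beta than in alpha (log2 -2.88, SE 0.204, adjusted p = 8.41e-09). The other Mastermind-like genes differed less, with Maml1 at 27.7 ± 5.49, 26.4 ± 3.02 and 32.4 ± 4.02 CPM and Maml3 at 98.5 ± 8.60, 99.3 ± 7.08 and 114 ± 14.2 CPM in delta, beta and alpha (SD, n = 3), and neither passed the test in any comparison.

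Kat2b, an acetyltransferase gene, averaged 40.5 ± 6.06 CPM in delta, 77.9 ± 4.32 in beta and 58.55 ± 9.45 in alpha (SD, n = 3). It was lower in delta than in beta (log2 -0.94, SE 0.143, adjusted p = 6.18e-05) and than in alpha (-0.53, adjusted p = 0.0114), the second of which was lost without alpha library 1 (adjusted p = 0.0697). It was higher in beta than in alpha (0.41, adjusted p = 0.0381), a call lost without any beta library (adjusted p 0.0789 to 0.136), alpha 2 (0.210) or alpha 3 (0.0846). Ncor1, which encodes a corepressor that binds Rbpj, averaged 352 ± 21.6 CPM in delta, 460 ± 6.33 in beta and 500.3 ± 35.5 in alpha. It was lower in delta than in beta (log2 -0.39, SE 0.0855, adjusted p = 0.00209) and than in alpha (-0.51, SE 0.0855, adjusted p = 0.000255). Ep300 in delta against beta (0.27, adjusted p = 0.0318) and Snw1 in delta against alpha (0.44, adjusted p = 0.0382) were called higher. The Ep300 call was lost without delta 2, delta 3, any beta library or alpha 2 (adjusted p 0.0506 to 0.123), and the Snw1 call without delta 1, delta 3, beta 1, beta 2, alpha 1 or alpha 3 (0.0509 to 0.162).

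Of 4 genes of non-canonical ligands, 2 were tested. Dlk1, which encodes a Delta-like protein that lacks the receptor-activating domain, had 15.0, 18.9 and 40.6 CPM in delta, 1.67, 1.54 and 1.81 in beta and 0.342, 0 and 0.282 in alpha. The 3 subsets did not overlap, with delta library 3 highest. The log2 fold change was 3.88 (SE 0.437, adjusted p = 2.48e-06) in delta against beta, 6.78 (SE 0.566, adjusted p = 9.75e-08) in delta against alpha and 2.90 (SE 0.704, adjusted p = 0.00485) in beta against alpha, with only 5 counts in alpha. In limma on log2 CPM these differences from alpha were 5.65 and 2.09. Dner, a gene of another atypical ligand, averaged 15.3 ± 2.25 CPM in delta, 22.9 ± 6.20 in beta and 14.2 ± 0.775 in alpha (SD, n = 3). It was higher in beta than in alpha (0.69, adjusted p = 0.0263), a call lost without beta 1 (0.113), beta 2 (0.169) or any alpha library (0.0535 to 0.0842).

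Of 7 canonical target genes, only Hes1 passed the filter. Hes1 stood at 10.65, 7.71 and 7.71 CPM in delta, 6.29, 3.94 and 5.94 in beta and 9.80, 15.4 and 11.7 in alpha. All beta libraries lay below the other 6, and delta and alpha overlapped. Hes1 was 2.26-fold lower in beta than in alpha (log2 -1.18, SE 0.293, adjusted p = 0.00575). Delta against beta gave 0.68 (adjusted p = 0.0966) and delta against alpha -0.50 (adjusted p = 0.231). Hes5 and Hey2 had 0 counts in all 9 libraries, which allows up to 3 counts in each. Hey1 had 0 to 12 counts per library, Hes7 0 to 16, Heyl 0 to 11 and Nrarp 0 to 4.34.

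Duct cells of the pancreas are known to express Hes1. All 8 of 8 duct markers had counts, and they summed to between 190 and 350 CPM in delta, between 363 and 414 in beta and between 603 and 795 in alpha, most of it Krt7 and Spp1. Of the defining duct genes, Sox9 stood at 17.6, 14.4 and 25.1 CPM in delta, 0 in beta and 0, 0.504 and 1.13 in alpha. Cftr stood at 0.273 to 1.36 CPM in delta, 0 in beta and 0 to 0.378 in alpha. Their part in the Notch2, Jag1 and Hes1 results was not tested.

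Among genes that Hes1 represses in progenitors, Neurog3 and Neurod1 went opposite ways in delta. Neurog3 had 280, 336 and 310 counts in delta, 0, 1 and 3 in beta and 3, 10 and 8 in alpha, or 38.2, 50.8 and 39.8 CPM in delta, 0, 0.171 and 0.495 in beta and 0.342, 1.26 and 1.13 in alpha. Every delta library lay far above the other 6. The log2 fold change was 7.60 (SE 0.472, adjusted p = 1.43e-09) in delta against beta, where beta held 4 counts in all (6.92 without beta 1, 8.88 without beta 3), and 5.57 (SE 0.373, adjusted p = 5.52e-09) in delta against alpha. Beta against alpha gave -2.03 and just missed the threshold (adjusted p = 0.05001), which it passed without delta 1 (0.0486), without beta 3 (log2 -3.32, 0.0206) and without alpha 1 (0.0162). It also passed in DESeq2 (0.0376), with DESeq2 size factors (0.0481) or upper-quartile factors (0.0412) in edgeR, and with no filter (0.0148) or a stricter one (0.0484) on low counts. Without beta 1 it was -1.36 (0.217).

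Neurod1, which acts after Neurog3 and is kept on in endocrine cells, averaged 194 ± 24.2 CPM in delta, 502 ± 23.4 in beta and 506 ± 15.5 in alpha (SD, n = 3). It was lower in delta than in beta (log2 -1.37, adjusted p = 6.91e-09) and than in alpha (-1.38, adjusted p = 9.43e-09).

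**Figure D4:**
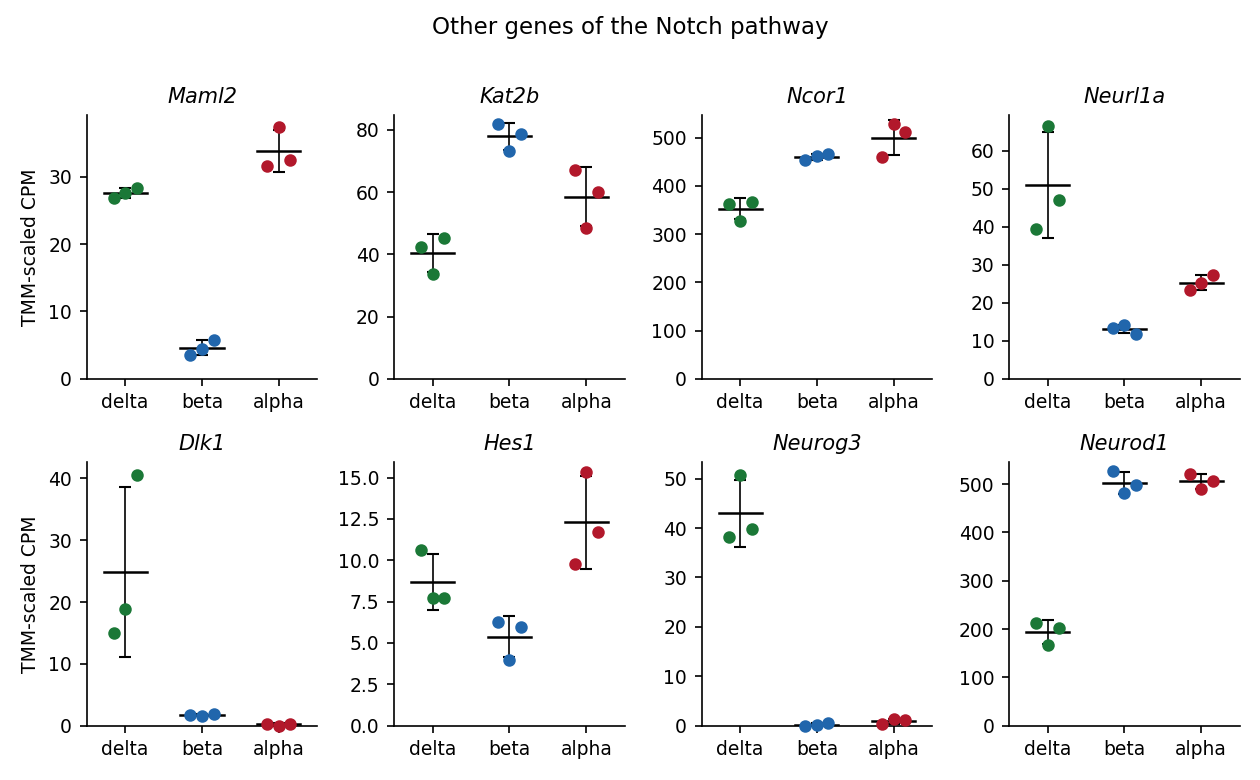
Level of 8 other Notch pathway genes in TMM-scaled CPM (vertical axes start at 0 and differ between panels) in the delta, beta and alpha libraries. Points are libraries, lines are means and bars are SD over 3 libraries, not drawn below 0. Maml2 averaged 27.6 CPM in delta, 4.61 in beta and 33.8 in alpha, and Neurog3 averaged 43.0, 0.222 and 0.910.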

How the data were processed

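The RNA of 9 sorted islet libraries was analysed from the gene tables that the authors deposited, 1 per library. Per the labels' protocols, libraries were strand-specific, made with random primers and depleted of ribosomal RNA. The submitters' processing notes name RSEM (no version), DESeq2 1.22.1 under R 3.5.1, STAR 2.5.2b and build GRCm38.p6. Per the file headers, the deposited tables hold effective lengths, expected counts from RSEM, TPM and FPKM, for 55536 genes each. FPKM as deposited, and a further deposited table with a normalised signal of each gene, were not tested. Between 6.94% and 8.66% of expected counts per library were not whole. All gene identifiers were matched to GENCODE M21 (GRCm38) for symbols and coordinates.

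Expected counts were rounded, filtered with filterByExpr to 15896 genes, TMM-scaled and fitted with edgeR 4.0.16 (robust quasi-likelihood, R 4.3.3) over all 9 libraries with 1 coefficient per subset. Tests were 2-sided with Benjamini-Hochberg adjustment over all tested genes at 0.05, and adjusted p-values are edgeR's unless another tool is named. CPM is the count over the TMM-scaled library total. SE and 95% intervals belong to log2 fold changes. Exact intervals are Clopper-Pearson, and the limit of a count of 0 is 3 counts; both cover counting error only. No exact permutation test is given, since 3 against 3 libraries cannot go below p = 0.1. The procedure was also run on simulated counts with a smaller share of changed genes than was called here. No result rests on that run.

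The replicate numbers were not taken to pair libraries, since the labels do not say what a number marks. Alternatives were other scaling factors, filters and tools (DESeq2 1.42.0, limma 3.58.1), TPM with pseudocounts of 1 and 0.1, only 2 subsets in the fit, a replicate block and libraries left out. All 10 Notch genes are named. Of the pathway lists, up to 4 genes per comparison and list past the test are named, smallest p first, plus Hes1, Hey1, Nrarp and Neurog3, and other genes named were chosen after their values were seen. A few genes that this rule covers are not reported here. The genes, lists and markers were chosen with earlier results of these data known.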

Additional observations from a re-analysis of the deposited data

How the results depend on the processing

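Over 21 alternative settings, 467 of 503 log2 fold changes of the tested Notch genes stayed on the same side of the threshold, 27 lost a call and 9 gained one, and no called value changed sign. Limma on TPM was the setting that ended most calls. The 3, 1 and 4 Notch genes called in delta against beta, delta against alpha and beta against alpha became 1, 0 and 0 with a pseudocount of 1, 0, 0 and 0 with a pseudocount of 0.1, and 1, 0 and 1 with a pseudocount of 1 after ribosomal and 7S RNA genes had been removed. At an unadjusted p under 0.05, each of these 3 settings left 2, 1 and 4 genes. The 11, 8 and 10 pathway genes became 5, 4 and 3, then 5, 4 and 4, then 7, 4 and 3. The call of Ep300 in delta against beta changed sign in them, at log2 -0.0688, -0.0714 and -0.2432. Limma on log2 CPM, which uses no effective length, kept every Notch call of edgeR. It also differs from the TPM settings in scaling and pseudocount, so it cannot single out length. The cause of the lost calls was not tested. With 1 library left out, pathway calls in beta against alpha ran from 5 (without alpha library 2) to 13, with 6 without beta library 1, and without beta 2 and delta 3 together they numbered 5; the cause was not tested. With a replicate block, 4, 1 and 5 Notch genes and 12, 12 and 13 pathway genes were called, the added Notch calls being Notch3 in delta against beta (adjusted p = 0.0474) and in beta against alpha (0.0303), and Neurog3 passed in beta against alpha (log2 -2.00, 0.0430). Same-numbered libraries correlated at r between 0.00 and 0.11 over 9 pairs, and libraries of different number and subset at r between -0.10 and 0.02. In 16 of 18 pairings a library correlated best with its own number in another subset. Notch4, Dll3 and the Hey genes had too few counts to be tested, and whether Notch3 was called depended on the setting.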
